A study of Mus musculus with 26 samples.

Results

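A set of 10 genes that mark macrophages was followed through the chemical reprogramming of mouse fibroblasts into pluripotent stem cells. The 10 are Csf1r, Lyz2, C1qa, C1qb, C1qc, Tyrobp, Mrc1, Adgre1, Ptprc and Fcer1g, and they were taken by name from the 16718 genes of the deposited expression table. They were chosen by their values in the starting fibroblasts (high) and on day 6 of the full course (low), so those values are given as a description with no test. All 10 had a row in the table, 8 of 10 passed the filter on low values in the fits between courses, and 4 of 10 passed it in the fit against pluripotent cells.

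The study measured total RNA by sequencing in 26 libraries in 5 groups, all from mouse cells. The course labelled minus Brdu left out BrdU (bromodeoxyuridine, a thymidine analogue that cells build into DNA) and had 1 library on each of days 6, 12, 18, 22, 30, 36 and 40. The course labelled minus Chir left out Chir (a small molecule that blocks GSK3 and so switches on Wnt signalling) and had 1 library on each of days 6, 12, 18, 22 and 30. The full course received all chemicals, BrdU and Chir included, sampled once on each of those 7 days up to day 40. The other chemicals are not listed in the sources used here. MEF (mouse embryonic fibroblasts, day 0) had 1 library and CiPSC (established chemically induced pluripotent stem cells) had 6 libraries. Strain, embryo age, the number of embryos pooled and whether the CiPSC libraries are separate lines are not given in the sources used here.

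Values are whole numbers that the authors normalized to 1 common distribution, so each library summed to between 4143561 and 4162600, and the sequencing depth behind a value is unknown. They rank a gene within a library and compare that gene between libraries, but they are not per length, so levels of different genes are not compared. Of fibroblast genes, MEF had Thy1 at 2167, Pdgfra at 692 and Col1a1 at the table's maximum of 21988. Pdgfra was higher on every day of the full course, at 2556 to 6088, and without BrdU, at 942 to 4974. Col1a1 was also at 21988 on days 30 to 40 without BrdU. The summed value of 8 pluripotency genes was 26615 to 42205 in CiPSC and 15 in MEF. Log2 changes and slopes are of value + 1 and carry limma standard errors, and a gene is called where its p, adjusted by Benjamini-Hochberg over all genes tested, is under 0.05. Days are the only repeats of a course. Successive days are not independent, so p-values can be too small and say nothing of another culture.

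Macrophages are phagocytes of the myeloid lineage that live in nearly every tissue of the embryo and adult. They depend on CSF1 or IL34 acting through the receptor tyrosine kinase encoded by Csf1r, and their gene programme is driven by the ETS factor PU.1. They clear debris with surface receptors and lysosomal enzymes, secrete the recognition subunit of the classical complement pathway, and signal through small adaptors that carry an ITAM (a tyrosine motif that recruits the kinase SYK). Cultures of embryonic fibroblasts come from minced whole embryos and can carry such cells along. In bulk samples like these, fewer cells of a type and less RNA per cell cannot be told apart.

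The genes lie on 7 mouse chromosomes (mm10, GENCODE M21). C1qb, C1qc and C1qa stand side by side on the minus strand of chromosome 4, at 136880129 to 136886187, 136889804 to 136893065 and 136895917 to 136898803, in a run of 18675 bases that holds no other annotated gene. Fcer1g (171229572 to 171234365) and Ptprc (138062861 to 138175708) are on chromosome 1. Tyrobp is on chromosome 7 from 30413760 to 30417585, and its neighbour Hcst lies 126 bases away. Lyz2 is on chromosome 10 from 117277331 to 117282321, with the near-identical paralog Lyz1 5475 bases away. Lyz1 was not analysed here, so how reads were divided between the pair is uncertain. Mrc1 is on chromosome 2 from 14229392 to 14332057 and Adgre1 on chromosome 17 from 57358691 to 57483527.

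Promoter windows from RefSeq (GRCm38.p6, 250 bases before to 50 after the start) were found for 6 of the 10 genes. A search for AGGAAGT on either strand (ACTTCCT when read on the other strand), the core sequence that PU.1 and other ETS factors bind, found it in 5 of these 6, in Ptprc, Mrc1, C1qb, C1qc and Lyz2 and not in Fcer1g. It is in 9.35% of all 32851 windows of the table. Such a match is a description of the letters, not a site shown to be bound. The stretches below are shown because they come from the complement pair whose values moved together and from the gene with the clearest difference between courses. They are 67 bases each, read 5′ to 3′ along the minus strand on which all 3 genes lie, with the match in capitals. Distances are counted to the RefSeq start, which for these 3 genes differs from the GENCODE gene end given above.
C1qb, chr4:136886217-136886283, 53 bases before the start: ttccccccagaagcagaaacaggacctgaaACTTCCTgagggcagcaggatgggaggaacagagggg
C1qc, chr4:136893073-136893139, 195 bases before the start: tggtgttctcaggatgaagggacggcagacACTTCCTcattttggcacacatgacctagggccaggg
Lyz2, chr10:117282336-117282402, 100 bases before the start: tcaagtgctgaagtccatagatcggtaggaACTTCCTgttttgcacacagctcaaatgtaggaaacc
In all 3 the ETS core reads ACTTCCT along the gene's own strand, and the surrounding bases differ.

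All 10 markers had their highest value of the 26 libraries in MEF, which 5.84% of all genes did. The summed value of the 10 was 57 to 266 (median 109) without BrdU, 144 to 411 (median 349) without Chir and 46 to 107 (median 77) in the full course. It was 16 to 56 in CiPSC and 4840 in MEF. Lyz2 made most of the sum without Chir. The other 9 summed to 25 to 150 (median 63) without BrdU, 47 to 159 (median 72) without Chir, 27 to 79 (median 54) in the full course, 16 to 56 in CiPSC and 3154 in MEF. No later library came near the starting level of any marker. The closest was Lyz2 on day 12 without Chir, at 17.9% of its MEF value. C1qc was the farthest, with every later library at or below 1.28% of MEF. The number of markers above 0 was 5 to 9 without BrdU, 7 to 10 without Chir, 4 to 8 in the full course, 2 or 3 in each CiPSC library and 10 in MEF.

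**Figure D1:**
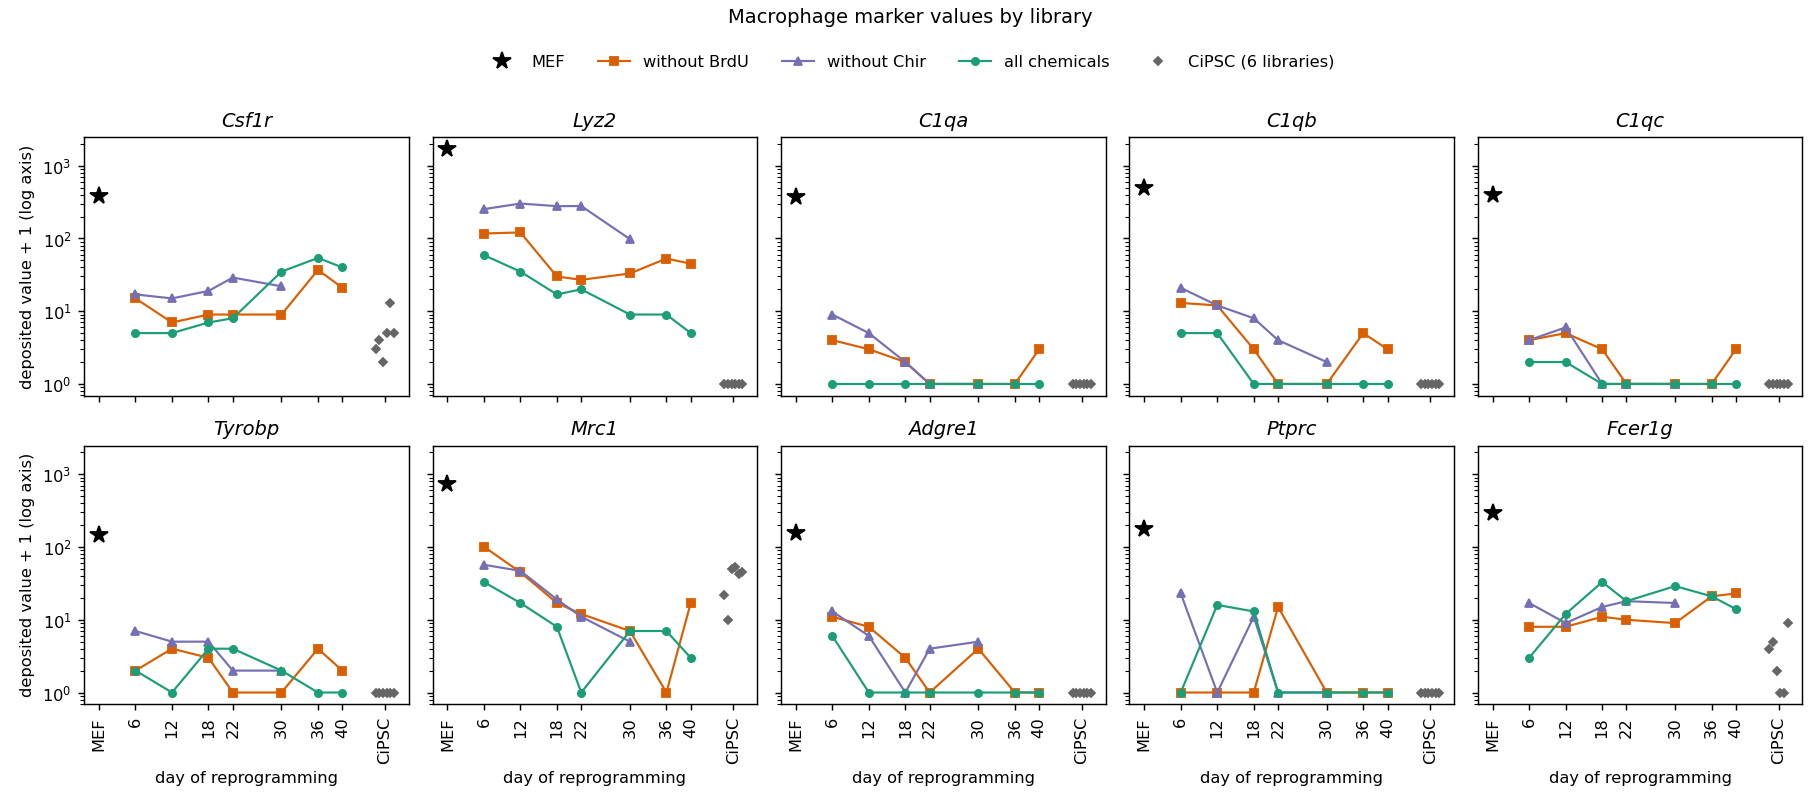
Deposited value + 1 (log axis) of each of the 10 macrophage markers by day of reprogramming. Points are single libraries, lines join the days of a course, the star is the MEF library and grey diamonds are the 6 CiPSC libraries. Every marker is highest in MEF. Csf1r is higher on days 30 to 40 of the full course than on days 6 to 22, and Mrc1 stands between 9 and 52 in CiPSC.

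The drop was already present on day 6 in all 3 courses. Without BrdU the day 6 values were 0% (Ptprc) to 13.5% (Mrc1) of MEF with a median of 2.42%. Without Chir they were 0.769% (C1qc) to 14.9% (Lyz2) with a median of 4.86%. In the full course they were 0% (C1qa and Ptprc) to 4.31% (Mrc1) with a median of 0.748%. All 10 stood lower than MEF by 2 or more on the log2 scale in each course. Over all genes 5.48% did so without BrdU, 5.51% without Chir and 5.51% in the full course, and since the markers were chosen for high MEF values and low values on day 6 of the full course, nothing is read from these counts in any of the 3 courses. The 3 comparisons share the single MEF library.

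**Figure D2:**
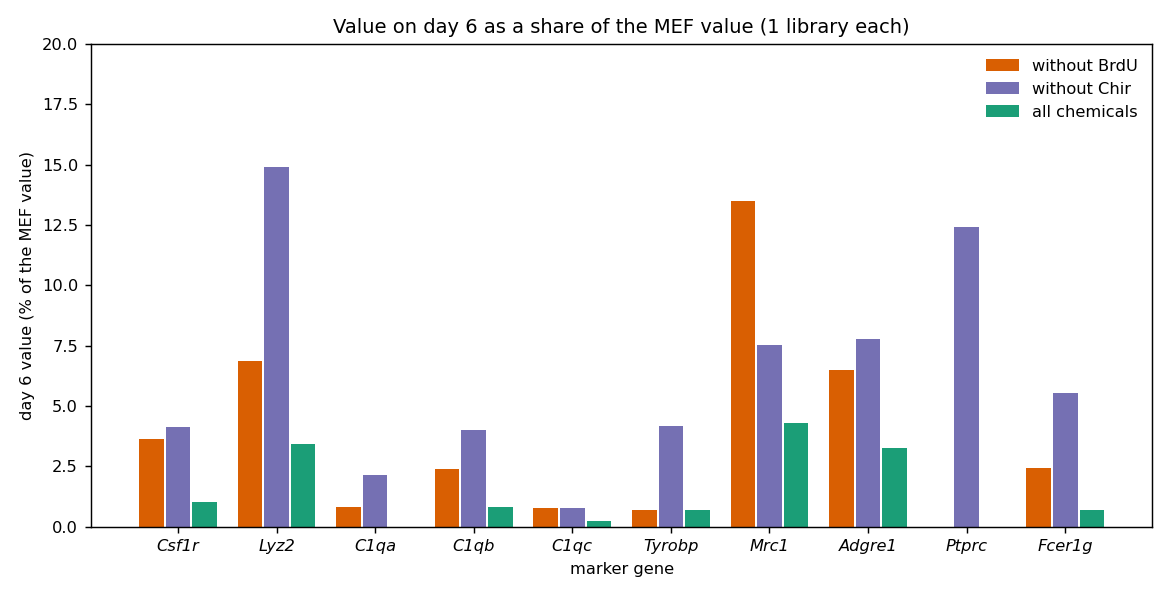
Day 6 value of each marker as a percentage of its MEF value in the course without BrdU, the course without Chir and the full course (1 library each, so no error bars). Bars at 0 are genes listed at 0 on day 6. The highest bar is Lyz2 without Chir at 14.9%, and in the full course no bar passes 4.31%.

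Csf1r encodes the receptor for CSF1 and IL34, on which macrophages depend for survival. The gene lies on chromosome 18 from 61100598 to 61132149 and overlaps Hmgxb3 on the opposite strand. Whether counting used strand is not given in the sources used here, so reads from that overlap cannot be told apart. Its values on days 6, 12, 18, 22, 30, 36 and 40 were 14, 6, 8, 8, 8, 36 and 20 without BrdU and 4, 4, 6, 7, 34, 53 and 39 in the full course. Without Chir it stood at 16, 14, 18, 28 and 21 on days 6 to 30. In CiPSC it was 2, 3, 1, 4, 12 and 4, and in MEF 386. Within the full course days 30 to 40 did not overlap days 6 to 22. Over days 12 to 40 it rose in the full course by 1.32 ± 0.24 per 10 days on the log2 scale (adjusted p = 0.00438, limma). A rising slope was called for 7.22% of all genes. The slope without BrdU was 0.71 ± 0.24 (adjusted p = 0.09), and the difference between the slopes, −0.61 ± 0.34, did not pass (adjusted p = 0.2975). At its highest in the full course, on day 36, Csf1r stood at 13.7% of its MEF value. Hmgxb3, which overlaps it, was 268, 319, 381, 302, 317 and 320 on days 12 to 40 of the full course.

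Late in the full course Csf1r was also above CiPSC, by 3.25 ± 0.57 on the log2 scale for days 30 to 40 against the 6 CiPSC libraries (adjusted p = 0.000831, limma). The groups did not overlap, with 34, 53 and 39 against 1 to 12. Of all genes 26% were called higher in this comparison and 29.3% lower, so a call was common. Without either chemical Csf1r did not pass against the full course. The difference was −0.40 ± 0.39 without BrdU (adjusted p = 0.416) and 1.05 ± 0.50 without Chir (adjusted p = 0.152). Without Chir it was higher on 3 of 4 days and lower on day 30, and with day 30 left out the difference was 1.63 and passed (adjusted p = 0.0376).

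Over the fitted days both ligands of the receptor were called higher in the courses that left out a chemical. Of all genes 22.5% were called higher without BrdU and 15.3% without Chir. On day 6, outside the fits, both were lower without BrdU than in the full course (Csf1 374 against 556, Il34 9 against 12). Without Chir both were higher on day 6, at 939 and 22. Csf1, the main ligand, stood at 522, 522, 418, 872, 650 and 689 on days 12 to 40 without BrdU, against 335, 216, 143, 190, 338 and 201 in the full course. It was higher on 6 of 6 days, by 1.39 ± 0.20 (adjusted p = 0.00105, limma). Without Chir it stood at 848, 601, 612 and 793 on days 12 to 30, higher than the full course by 1.74 ± 0.19 (adjusted p = 0.00503). Csf1 was 1 to 10 in CiPSC and 1208 in MEF, and fibroblasts are a known source of it. Il34, the alternative ligand, was higher by 2.12 ± 0.49 without BrdU (adjusted p = 0.00856, limma) and by 2.98 ± 0.42 without Chir (adjusted p = 0.00836). On day 12 Il34 was lower without BrdU than in the full course, at 7 against 10. Unlike the markers, Il34 was low in MEF, at 14, and reached 84 on day 30 without Chir. Without day 18 both ligands lost their calls against the full course without Chir, and without day 22 Il34 did.

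Lyz2 encodes the lysozyme of macrophages and other myeloid cells, which cuts bacterial cell walls. It had 116, 120, 29, 26, 32, 52 and 44 on days 6 to 40 without BrdU and 252, 301, 277, 278 and 97 on days 6 to 30 without Chir. The full course had 58, 34, 16, 19, 8, 8 and 4, all 6 CiPSC libraries were listed at 0, and MEF had 1686. The full course was lowest of the 3 on every shared day, and the course without Chir was highest on every shared day. Lyz2 was higher without BrdU by 1.77 ± 0.39 over days 12 to 40 (adjusted p = 0.00668, limma) and without Chir by 3.60 ± 0.24 over days 12 to 30 (adjusted p = 0.00353). The first held when any day was left out, at 1.5 to 2.04. The second missed the threshold without day 18 (3.45, adjusted p = 0.0631), when limma called no gene of the whole table although 5153 had an unadjusted p under 0.05.

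Within the full course Lyz2 fell by 0.89 ± 0.25 per 10 days over days 12 to 40 (adjusted p = 0.0342, limma). That call was lost when day 18, 30, 36 or 40 was left out, with adjusted p between 0.0585 and 0.188. Without BrdU the slope was −0.20 ± 0.25 (adjusted p = 0.675), and the difference between the slopes of 0.69 ± 0.36 did not pass (adjusted p = 0.259). On days 30 to 40 of the full course Lyz2 was 8, 8 and 4, against 0 in every CiPSC library. It passed the filter on low values only through the full course, so neither a fold nor a test is given there.

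Of the 8 markers tested, Lyz2 was the only one called without BrdU, against 45.5% of all genes called (22.5% higher and 23% lower). Lyz2 and C1qb were called higher without Chir, against 30.8% of all genes called (15.3% higher and 15.5% lower), and none was called lower in either comparison. The median log2 difference of the tested markers was 0.61 without BrdU, against 0.01 over all genes tested, and 1.24 without Chir, against 0.00. Adgre1 in both comparisons and C1qb without BrdU passed the filter only through the course that left out the chemical, and the medians include them. The 2 comparisons share the libraries of the full course.

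**Figure D3:**
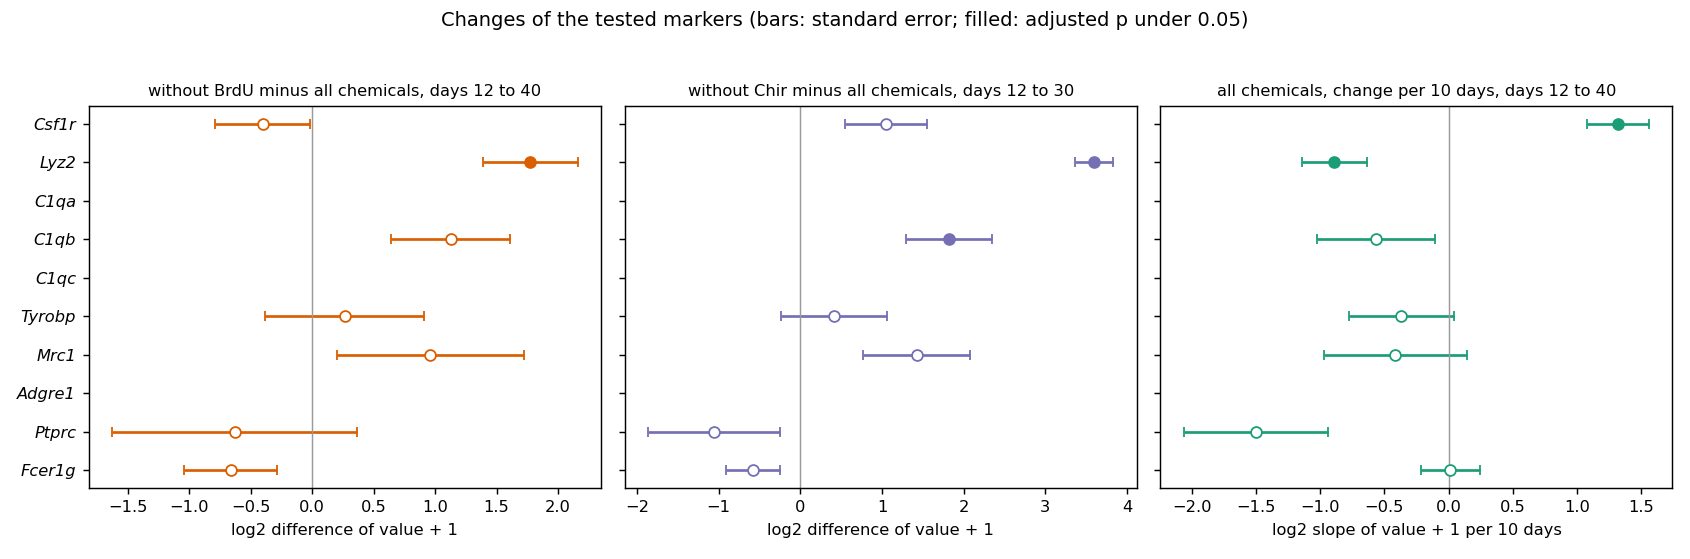
Log2 differences between courses (left and middle) and log2 slope per 10 days in the full course (right) for the tested markers, with limma standard errors as bars. Filled points have an adjusted p under 0.05, and genes listed at 0 on all fitted days of either course or under the filter have no point. Lyz2 is filled in all 3 panels, C1qb in the middle panel only and Csf1r in the right panel only.

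C1qa, C1qb and C1qc encode the 3 chains of C1q, which recognises antibody complexes and dying cells and starts the classical complement pathway. C1qb had 12, 11, 2, 0, 0, 4 and 2 on days 6 to 40 without BrdU and 20, 11, 7, 3 and 1 on days 6 to 30 without Chir. The full course had 4 on day 6, 4 on day 12 and 0 on every later day, CiPSC was listed at 0 and MEF had 498. C1qb was higher without Chir on 4 of 4 days, by 1.82 ± 0.53 (adjusted p = 0.0451, limma). That call was lost when any day was left out, with adjusted p between 0.0567 and 0.163. Without BrdU the difference was 1.13 ± 0.48 and did not pass (adjusted p = 0.0885, limma). There C1qb passed the filter on low values only through the course without BrdU, so nothing is read from that test.

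C1qa had 3, 2, 1, 0, 0, 0 and 2 on days 6 to 40 without BrdU and 8, 4, 1, 0 and 0 on days 6 to 30 without Chir. It was listed at 0 on all 7 days of the full course and in CiPSC, and stood at 374 in MEF. C1qc had 3, 4, 2, 0, 0, 0 and 2 without BrdU, 3, 5, 0, 0 and 0 without Chir, and 1, 1, 0, 0, 0, 0 and 0 in the full course, against 0 in CiPSC and 390 in MEF. Both were under the filter on low values and have no test. All 3 chains were listed at 0 on days 22 and 30 without BrdU and were at 2 each on day 40. That return to 2 is 1 library, and for each chain it is under 1% of MEF. Over the 25 libraries other than MEF, the log2 values of C1qa correlated with those of C1qc at r = 0.867 and with those of C1qb at r = 0.803, and C1qb with C1qc at r = 0.797. These are descriptions over libraries that share a course and mostly low values.

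Other complement genes did not all follow the pattern of the C1q chains. Of 11 complement genes other than the C1q chains with a row in the table, 6 were called higher and 1 lower without BrdU, against 22.5% of all genes higher and 23% lower. Without Chir 5 were called higher and 0 lower, against 15.3% of all genes higher and 15.5% lower. C1s1, a protease bound to C1q, had 1985, 1985, 1583, 4968, 3846 and 4508 on days 12 to 40 without BrdU, against 476, 279, 91, 500, 376 and 308 in the full course and 252 in MEF. It was higher by 3.25 ± 0.25 (adjusted p = 8.67e-05, limma), and its partner protease C1ra by 2.72 ± 0.24 (adjusted p = 0.000146). C4b, which the C1 complex cleaves, was higher by 3.70 ± 0.40 without BrdU (adjusted p = 0.000311). Without Chir the largest differences among called genes were those of C3ar1, a receptor for the C3a fragment, at 1.93 ± 0.38 (adjusted p = 0.0165), and Serping1, the C1 inhibitor, at 1.60 ± 0.25 (adjusted p = 0.0103). C4b was at 1.56 ± 0.44 (adjusted p = 0.0428) and C1ra at 1.46 ± 0.36 (adjusted p = 0.0294), and all 4 lost their calls without day 18 or day 22. Neither C1s1 nor C1ra had its highest value in MEF, unlike all 3 C1q chains. C3ar1 did, at 172 in MEF against at most 20 in any other library, and it is also 1 of the other macrophage genes below.

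Tyrobp and Fcer1g encode ITAM adaptors, which pair with activating receptors and Fc receptors on myeloid cells. Tyrobp had 1, 3, 2, 0, 0, 3 and 1 on days 6 to 40 without BrdU and 6, 4, 4, 1 and 1 on days 6 to 30 without Chir. The full course had 1, 0, 3, 3, 1, 0 and 0, CiPSC was listed at 0, and MEF had 144. Tyrobp overlapped between the courses, with a difference of 0.26 ± 0.65 without BrdU (adjusted p = 0.76) and 0.41 ± 0.65 without Chir (adjusted p = 0.645, limma).

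Fcer1g behaved differently from Tyrobp in that it stayed above 0 in every library of the courses. It had 7, 7, 10, 9, 8, 20 and 22 on days 6 to 40 without BrdU and 16, 8, 14, 17 and 16 on days 6 to 30 without Chir. The full course had 2, 11, 32, 17, 28, 20 and 13, CiPSC had 3, 4, 1, 0, 0 and 8, and MEF had 288. Day 6 of the full course was the lowest of its course, and the courses overlapped. Neither difference between courses passed, at −0.67 ± 0.38 without BrdU (adjusted p = 0.179) and −0.58 ± 0.33 without Chir (adjusted p = 0.218, limma). The slope in the full course was 0.01 ± 0.23 per 10 days (adjusted p = 0.98). On days 30 to 40 of the full course Fcer1g, at 28, 20 and 13, did not overlap CiPSC and was higher by 2.94 ± 0.75 (adjusted p = 0.00735).

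The genes that act behind ITAM adaptors include kinases and phosphatases. Of 12 such genes 9 had a row, and on day 6 the value was lower than MEF by 2 or more on the log2 scale for 7 of 9 without BrdU, 3 of 9 without Chir and 6 of 9 in the full course, against 5.48%, 5.51% and 5.51% of all genes in the same courses. Without BrdU 0 of 8 tested were called higher and 3 lower, against 22.5% of all genes higher and 23% lower. Without Chir 2 of 9 were called higher and 0 lower, against 15.3% higher and 15.5% lower. Calls in either direction together were no larger a share than the 45.5% and 30.8% of all genes called. The share called lower without BrdU and higher without Chir was above that of all genes, on 3 and 2 genes. Inpp5d, the lipid phosphatase SHIP1, was lower than in the full course by 4.02 ± 0.82 without BrdU (adjusted p = 0.00504, limma). It had 1, 2, 2, 4, 0 and 0 on days 12 to 40 against 9, 24, 36, 11, 70 and 207 in the full course. It was 566 to 1152 in CiPSC and 78 in MEF, so it was highest in pluripotent cells. Ptpn6, the phosphatase SHP1, fell by 2.22 ± 0.46 without BrdU (adjusted p = 0.00528) and Syk by 1.87 ± 0.57 (adjusted p = 0.0281). Plcg2, a phospholipase, was higher by 2.57 ± 0.30 without Chir (adjusted p = 0.00607) and Lyn, a Src family kinase, by 0.56 ± 0.17 (adjusted p = 0.0486). Both lost their calls without day 18 or day 22, and Syk lost its call without day 30 or day 36.

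Mrc1 encodes the mannose receptor CD206, an endocytic receptor of macrophages and of some endothelial cells. In CiPSC it had 21, 9, 49, 52, 42 and 44, all above every value of the full course from day 18 on. On days 6 to 40 it had 100, 44, 16, 11, 6, 0 and 16 without BrdU and 32, 16, 7, 0, 6, 6 and 2 in the full course. Without Chir it had 56, 46, 18, 10 and 4 on days 6 to 30, and MEF had 742. All 3 courses had their highest value on day 6. On days 30 to 40 of the full course Mrc1, at 6, 6 and 2, was lower than CiPSC with no overlap (−2.61 ± 0.60 on the log2 scale, adjusted p = 0.00406, limma). Even so, the highest CiPSC value of 52 was far below the 742 of MEF. Differences between courses did not pass, at 0.96 ± 0.76 without BrdU (adjusted p = 0.325) and 1.42 ± 0.65 without Chir (adjusted p = 0.14). The first passed with day 36 left out, at 1.72 (adjusted p = 0.0471).

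Adgre1 encodes F4/80, the surface receptor used to recognise mouse macrophages. It had 10, 7, 2, 0, 3, 0 and 0 on days 6 to 40 without BrdU and 12, 5, 0, 3 and 4 on days 6 to 30 without Chir. In the full course it had 5 on day 6 and 0 on all later days, in CiPSC 0 and in MEF 154. With the full course listed at 0 on the fitted days, Adgre1 passed the filter on low values only through the other courses. Neither a fold nor a test is therefore given for it. Ptprc encodes CD45, the phosphatase on all leukocytes. Its values were scattered, at 14 on day 22 and 0 on the other 6 days without BrdU, and at 22, 0, 10, 0 and 0 on days 6 to 30 without Chir. The full course had 0, 15, 12, 0, 0, 0 and 0, CiPSC 0 and MEF 178. Ptprc did not pass in any fit over all days, with differences of −0.63 ± 1.0 without BrdU (adjusted p = 0.627) and −1.06 ± 0.81 without Chir (adjusted p = 0.342). Its slope in the full course was −1.5 ± 0.56 per 10 days (adjusted p = 0.0929), and with day 22 left out it was −1.68 and passed (adjusted p = 0.00714).

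The day-by-day counts put the 2 altered courses beside the full one. On day 6, 8 of 10 markers were higher without BrdU than in the full course and 0 were lower, against 50.9% of all genes higher. Without Chir 10 of 10 were higher on day 6, against 51% of all genes. The day 6 values of the full course chose the markers, which can by itself place the other courses above it. On day 12, 8 were higher and 2 lower in each comparison, against 49.7% of all genes higher without BrdU and 46.2% without Chir. On day 18, 7 were higher and 3 lower without BrdU (50.2% of all genes higher), and 6 and 2 without Chir (48.9%). On day 22, 4 were higher and 2 lower without BrdU (47.8%), and 5 and 1 without Chir (49%). By day 30 the counts were 2 higher and 3 lower without BrdU and 3 higher and 3 lower without Chir, and the others were equal. Of all genes 49.1% and 49.8% were higher on day 30. On day 36 without BrdU 3 were higher, 2 lower and 5 equal, against 50.9% of all genes higher. On day 40 without BrdU 7 were higher and 1 was lower, against 50.3% of all genes higher.

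A return of the markers after day 12 was asked of the slopes. In the full course Csf1r was called rising and Lyz2 falling among 8 tested, against 15.7% of all genes called, 7.22% of all genes rising and 8.49% falling. Without BrdU limma called 0 of 8, with 2 at an unadjusted p under 0.05, against 9.48% of all genes called, 4.34% rising and 5.14% falling. No difference between the slopes was called among the 8, and 0 had an unadjusted p under 0.05, against 7.05% of all genes called (3.71% higher and 3.34% lower). Against CiPSC, where 55.3% of all genes were called, Csf1r and Fcer1g were called higher and Mrc1 lower. The filter left out the markers at or near 0 in both groups, so no count over the 10 is read there. In CiPSC Lyz2, C1qa, C1qb, C1qc, Tyrobp, Adgre1 and Ptprc were listed at 0 in all 6 libraries.

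Other macrophage and leukocyte genes shared the loss only in part. Of 36 such genes 25 had a row, and 12 of these 25 were highest in MEF. On day 6, 18 of 25 were lower than MEF by 2 or more on the log2 scale without BrdU, 12 of 25 without Chir and 17 of 25 in the full course, against 5.48%, 5.51% and 5.51% of all genes in those courses. Ctss, a lysosomal protease, had at most 14 in any other library, against 265 in MEF, and Mpeg1, a pore-forming protein of phagocytes, had at most 80 in any other library, against 588 in MEF. Cd68, a lysosomal glycoprotein used as a macrophage marker, had 330 on day 22 of the full course, against 312 in MEF. These 3 were picked out after their values were seen. The summed value of the 25 was 527 to 1009 without BrdU, 1289 to 2343 without Chir and 862 to 1659 in the full course. It was 841 to 1376 in CiPSC and 4410 in MEF.

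Without Chir 11 of these 25 genes were called higher, 1 lower and 13 did not pass, where 15.3% of all genes were called higher and 15.5% lower, with a median difference of 1.58 against 0.00 over all genes. Lyve1, a hyaluronan receptor of some macrophages and of lymphatic endothelium, had 116, 134, 112 and 19 on days 12 to 30 without Chir, against 10, 4, 7 and 0 in the full course, and was higher by 4.08 ± 0.35 (adjusted p = 0.00362, limma). Its MEF value was 8, so it was not a gene lost from the starting culture. Trem2, a receptor that signals through Tyrobp, was higher by 3.47 ± 0.65 (adjusted p = 0.0151), with 41, 74, 62 and 102 against 13, 6, 6 and 1. Its partner adaptor Tyrobp stayed at 1 to 4 on those days without Chir. Siglec1, a sialic acid receptor, was higher by 3.12 ± 0.41 (adjusted p = 0.00721) and Marco, a scavenger receptor listed at 0 in MEF, by 3.11 ± 0.59 (adjusted p = 0.0154). Without day 18 limma called none of these genes higher (11 of the 25 had an unadjusted p under 0.05), and without day 22 it called 1, Lyve1.

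Without BrdU 3 of the 25 were called higher, 4 lower and 18 did not pass, a smaller share than the 45.5% of all genes called. The median difference was 0.10, against 0.01 over all genes. Lcp1, an actin bundling protein of leukocytes, had 14, 18, 32, 14, 24 and 22 on days 12 to 40 without BrdU, against 64, 194, 246, 816, 903 and 732 in the full course. The difference was −4.05 ± 0.48 on the log2 scale (adjusted p = 0.000452, limma). Lcp1 on days 30 to 40 of the full course thus stood above its MEF value of 534, on days when C1qa, C1qb, C1qc, Adgre1 and Ptprc were listed at 0. Cd84, a leukocyte adhesion receptor, was at −3.04 ± 0.53 (adjusted p = 0.00257). Cd14, a coreceptor for bacterial lipopolysaccharide, was higher by 2.73 ± 0.83 (adjusted p = 0.0266), and Laptm5, a lysosomal protein of blood cells, was at −1.74 ± 0.59 (adjusted p = 0.0421). Cd14 lost its call when day 30, 36 or 40 was left out, and Laptm5 when day 12, 22, 30, 36 or 40 was left out. Leaving out day 36 brought the number called higher to 0 (limma, with 7 of the 25 at an unadjusted p under 0.05 in either direction), and leaving out day 30 or 40 brought it to 1.

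**Figure D4:**
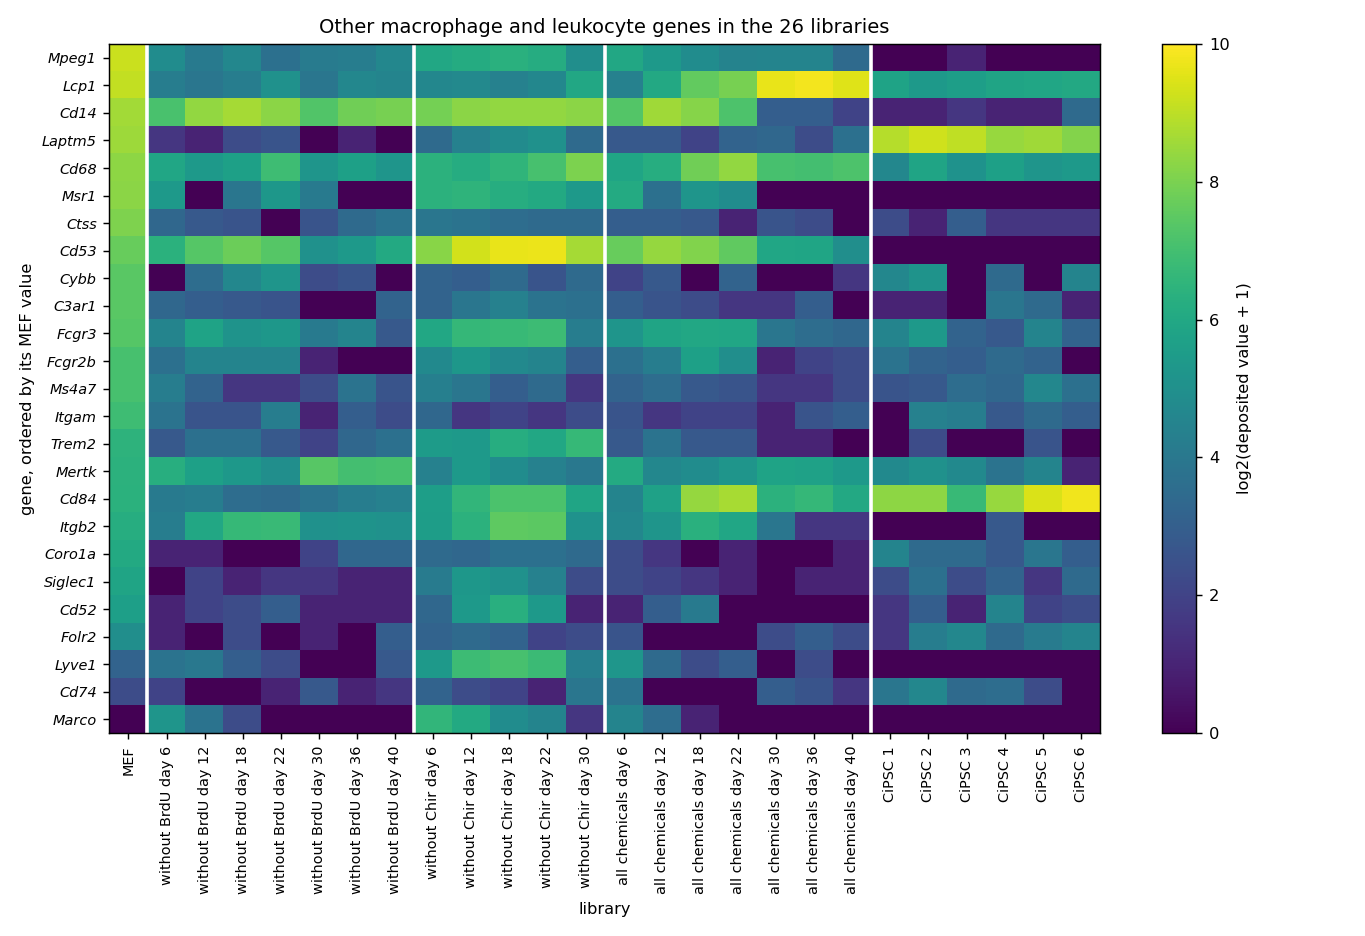
Log2(value + 1) of the 25 other macrophage and leukocyte genes (rows, ordered by MEF value) in the 26 libraries (columns: MEF, then the courses without BrdU, without Chir and with all chemicals by day, then CiPSC). Ctss is bright in the MEF column and dark elsewhere, and Mpeg1 is brightest in MEF, with up to 80 elsewhere. Lcp1 is bright on days 30 to 40 of the full course, Cd53 in the course without Chir, and Laptm5 and Cd84 in CiPSC.

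Against CiPSC 4 of 22 tested genes of this list were called higher on days 30 to 40 of the full course and 6 lower, a smaller share than the 55.3% of all genes called (26% higher and 29.3% lower). Laptm5 had 9, 4 and 12 in the full course against 283 to 620 in CiPSC, a change of −5.61 ± 0.33 (adjusted p = 1.2e-06, limma). Lcp1 was higher in the full course by 3.91 ± 0.17 (adjusted p = 3.47e-07) and Mpeg1 by 4.0 ± 0.44 (adjusted p = 4.41e-05). Cd53, a leukocyte tetraspanin, had 60, 58 and 30 on those days and was listed at 0 in every CiPSC library. Laptm5 and Cd84 thus stood at 283 to 620 and at 105 to 881 in CiPSC. Lyz2, C1qa, C1qb, C1qc, Tyrobp, Adgre1 and Ptprc were listed at 0 in the same libraries. The calls named here held when any 1 of the 9 libraries was left out.

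Of 12 transcription factors of the macrophage lineage, 6 were called higher and 1 lower without BrdU, where 45.5% of all genes were called, 22.5% higher and 23% lower. Without Chir 5 were called higher and 0 lower, where 30.8% of all genes were called, 15.3% higher and 15.5% lower. Spi1, which encodes PU.1 and is named here after its values were seen, had 5 on day 6 without BrdU, 8 without Chir and 3 in the full course, against 106 in MEF, and no later library of a course passed 6. Days 30, 36 and 40 of the full course had 3, 6 and 1, against 5 to 18 in CiPSC. Without BrdU the factors with the largest called differences were Irf5, an interferon regulatory factor, at 2.06 ± 0.42 (adjusted p = 0.00522), and Maf, a leucine zipper factor, at 1.65 ± 0.26 (adjusted p = 0.00153). Nr1h3, a nuclear receptor for oxysterols, was at 1.46 ± 0.32 (adjusted p = 0.00695) and Ikzf1, a zinc finger factor of blood cells, at −1.36 ± 0.42 (adjusted p = 0.0283). Ikzf1 lost its call when day 30, 36 or 40 was left out. Without Chir Fli1, an ETS factor of blood and vessels, was at 2.63 ± 0.39 (adjusted p = 0.0091) and Irf5 at 2.63 ± 0.39 (adjusted p = 0.009). Nr1h3 was at 2.42 ± 0.43 (adjusted p = 0.0134) and Maf at 1.45 ± 0.25 (adjusted p = 0.0126). These 4 lost their calls when day 18 or day 22 was left out.

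Markers of other blood and vessel cells are given as sums per library, and their part in the results was not tested. The lymphocyte genes summed to 1 to 11 without BrdU, 1 to 14 without Chir, 2 to 15 in the full course, 101 to 225 in CiPSC and 4 in MEF, with 5 of 12 in the table. Among them Cd3e, which defines T cells, was listed at 0 in MEF and in all courses and had 18 to 53 in the 6 CiPSC libraries, where Cd3d (3 to 58) and Cd3g (6 to 68) were also above 0. Granulocyte and mast cell genes (8 of 12 in the table) summed to 23 to 604 without BrdU, 155 to 647 without Chir, 16 to 362 in the full course, 10 to 25 in CiPSC and 60 in MEF. Endothelial genes (11 of 12) summed to 137 to 696 without BrdU, 421 to 772 without Chir, 472 to 6128 in the full course, 706 to 1026 in CiPSC and 1127 in MEF. Flt1, a receptor for VEGF, carried the high values of the full course. Without Flt1 the other 10 summed to 95 to 646 without BrdU, 145 to 653 without Chir, 426 to 745 in the full course, 706 to 1016 in CiPSC and 732 in MEF. Stab1 alone was 554 of that MEF sum, and no other of the 10 passed the 92 of Emcn there. Pecam1 was 6 and Cdh5 was 2 in MEF. On day 6 Stab1 was 24 without BrdU, 74 without Chir and 70 in the full course. Erythroid and megakaryocyte genes (3 of 11) summed to 36 to 2248 without BrdU, 12 to 205 without Chir, 1 to 63 in the full course, 1 to 31 in CiPSC and 81 in MEF.

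Genes outside the 10 were ranked by the Pearson correlation of their log2 values with the mean of the 10 over the 26 libraries. The most alike were Rtl3 (r = 0.899), Ccl4 (0.873), 2010300F17Rik (0.872), Cspg4 (0.869), Ctss (0.84), Sim2 (0.827), Rasa1 (0.826), Vav1 (0.82), Col10a1 (0.819) and Asap1 (0.815). Ccl4 is a chemokine made by macrophages and lymphocytes, Ctss the lysosomal protease above and Vav1 an exchange factor of blood cells, while Cspg4 marks pericytes and Col10a1 cartilage. Without MEF the same correlations over 25 libraries were 0.549 for Col10a1 to 0.815 for Ccl4. All rest in part on the MEF library. Among the 10, each gene's correlation with their mean was highest for C1qb, at 0.95 with MEF and 0.906 without it. It was lowest for Mrc1, at 0.569 with MEF and 0.26 without it. Without MEF, Csf1r and Fcer1g correlated at 0.597, while Mrc1 ran opposite to Csf1r at −0.415 and to Fcer1g at −0.549.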

How the data were processed

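The data are RNA sequencing of 26 mouse libraries. Per the labels' protocols, total RNA was extracted with TRIzol, made into libraries with a TruSeq RNA kit and sequenced on a NextSeq 500. Per the submitters' processing notes, bcl2fastq, Bowtie2, RSEM and the mm10 genome were used, with no versions given. The authors deposited 1 table of whole numbers, treated as a score: its name says CPM, but libraries share 1 distribution (totals 4143561 to 4162600, medians 76 to 77), as after quantile normalization, so no count test was possible. Depth is unknown.

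Values were analysed as log2(value + 1), which understates changes of genes near 0, in R 4.3.3 with limma 3.58.1 (intensity trend, two-sided, Benjamini-Hochberg adjustment over all genes with a mean of at least 1 in the fitted libraries, called at 0.05). Courses were compared over days 12 to 40 (BrdU) or 12 to 30 (Chir) with day as a block. Samples of the same day share a time point, and their deviations from the group mean correlated at 0.157 to 0.302 (BrdU) and 0.053 to 0.338 (Chir). Slopes with day came from 1 fit over both 7-day courses without day 6, and days 30 to 40 of the full course were set against 6 CiPSC libraries. MEF has 1 library and enters no test. The labels give no batch, so batch and the CiPSC group cannot be told apart. The fits were tested on simulated data.

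The 10 markers and all gene lists were chosen with earlier results of these data known. Of each other list at most 4 called genes with the largest change are named per comparison, and the 10 genes most correlated with the mean of the markers. Exceptions are stated, and 1 gene that this rule names is not reported here. Alternatives were other pseudocounts and filters, no intensity trend, day 6 included, no day block, and each day or CiPSC library left out.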

Additional observations from a re-analysis of the deposited data

Results flagged for a closer look

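Of 32 combinations of a marker and a group of 5 to 7 libraries, 4 held 1 library set far from the others (Dixon's criterion at the 95% level). Chance marks about 1 in 20 groups of values without ties, and days of a course are not replicates of one another. Where all other values are tied at 0, any value above 0 is marked, so that rate does not apply to Adgre1 and Ptprc below. Csf1r in CiPSC library 5 stood at 12, with 1 to 4 in the other 5. Lyz2 without Chir on day 30 stood at 97, below the 252 to 301 of the other 4 days. Adgre1 on day 6 of the full course stood at 5, with 0 on the later 6 days. Day 6 values of that course chose the markers, so nothing is read from this case. Ptprc without BrdU on day 22 stood at 14, with 0 on the other 6 days.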

How the results depend on the processing

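Lyz2 without BrdU and the 3 CiPSC differences with a fold (Csf1r 3.02 to 3.56, Fcer1g 2.65 to 3.29, Mrc1 −2.95 to −2.21 with 1 library left out) kept their direction and call under every alternative run. The rise of Csf1r in the full course did so too, at 1.22 to 1.56 with 1 day left out (adjusted p = 0.00634 to 0.028). Without BrdU the number of markers called higher was 2 with no filter, without intensity trend or with day 6 included, and 1 to 2 with 1 day left out. In the first 3 settings C1qb then passed (adjusted p = 0.0398, 0.0362 and 0.0486, limma). It passed the reported filter only through the course without BrdU, so nothing is read from these C1qb calls. Without Chir it was 1 with pseudocount 5, with a mean of at least 5 or with no replicate block, where C1qb had adjusted p = 0.099, and 0 to 2 with 1 day left out. With no replicate block, without BrdU, the count of other macrophage genes called higher was 0 and Cd14 lost its call (adjusted p = 0.0573). Lyz2 falling in the full course was lost with pseudocount 5 (0 markers called lower, adjusted p = 0.0604), and that count was 0 to 2 with 1 day left out. Counts over all genes with 1 day left out were 0 to 2790 higher and 0 to 2848 lower for the course without Chir. They were 457 to 1152 rising and 726 to 1389 falling for the slope of the full course, and 80 to 940 and 151 to 1163 for the slope without BrdU. For the slope difference they were 22 to 610 higher and 8 to 486 lower, and 979 and 896 with day 6 included.

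Some differences that never passed changed sign. With day 6 included, Ptprc and Fcer1g without Chir became 0.057 and 0.036, and the slope difference of Fcer1g −0.078. That of C1qb was −0.019 with pseudocount 5. With 1 day left out, Ptprc and Tyrobp without BrdU ran −1.54 to 0.041 and −0.083 to 0.717, and Tyrobp without Chir −0.226 to 0.881. Slopes in the full course ran −0.653 to 0.142 for Mrc1 and −0.342 to 0.249 for Fcer1g. Slopes without BrdU ran −0.346 to 0.385 for Lyz2 and −0.407 to 0.195 for Tyrobp. Slope differences ran −0.023 to 0.345 for C1qb, −1.733 to 0.128 for Mrc1 and −0.155 to 1.251 for Tyrobp. The cause of these changes was not tested. Depth is unknown, so how far it limits values near 0 cannot be given.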
